A study of Mus musculus with 4 samples.

Results

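The mitochondrial protein import genes described here are the rows of the deposited count table whose symbol begins with Timm or Tomm followed by a digit, together with Pam16, Grpel1, Samm50, Mtx1, Mtx2, Pmpca, Pmpcb, Immp1l, Immp2l, Chchd4 and Gfer. This gave 35 of 17194 gene symbols, and all 35 passed the filter on low counts. Of these, 34 are protein-coding, and the remaining row, Tomm6os, is a noncoding transcript antisense to Tomm6 that the naming rule takes in. The RNA came from primary mouse bone marrow-derived macrophages on day 2 of treatment with RANKL, which turns such precursors into osteoclasts, and was sequenced as polyadenylated RNA. The siHells group (2 libraries) carried an siRNA knockdown of Hells, a chromatin remodelling ATPase, and the siControl group (2 libraries) is its control, with the same RANKL treatment. The labels give neither strain, sex and age nor whether libraries came from separate cultures, so the p-values reflect library-to-library spread alone, possibly technical.

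Nearly all mitochondrial proteins are made in the cytosol and must be carried into the organelle. The TOM complex of the outer membrane receives them. From there, the TIM23 complex and its motor PAM draw proteins with a cleavable presequence into the matrix, the small TIM chaperones and the TIM22 complex place carrier proteins in the inner membrane, the SAM complex builds barrel proteins into the outer membrane, and the disulfide relay traps cysteine-rich proteins between the membranes. Osteoclasts are rich in mitochondria, and the title of the series names mitochondrial integrity as its subject.

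Total counts were 55642819 and 55012697 in the siHells libraries and 53502523 and 48873635 in the siControl libraries. The mean chi-square per gene between libraries of 1 group was 6.26 in siHells and 3.45 in siControl, above the value of about 1 that sampling alone gives, so each library was counted as a sample. Hells itself was at 15.2 and 14.6 CPM (counts scaled to library size) in siHells against 29.3 and 30.0 CPM in siControl, or 1.99-fold lower (log2 fold change -0.99, SE 0.068, adjusted p = 5.90e-09). Macrophage and osteoclast markers were both detected. The summed level of the 7 osteoclast markers was 1084 and 1049 CPM in siHells and 7462 and 7516 CPM in siControl, and that of the 7 macrophage markers was 8705 and 8492 CPM in siHells and 4842 and 4880 CPM in siControl. The 5 stromal markers summed to 1495 and 1483 CPM in siHells and 865 and 890.1 CPM in siControl, and the 4 neutrophil markers analysed to 246 and 226 CPM in siHells and 242 and 250.2 CPM in siControl. Single markers went against these sums, as Cd68 of the macrophage list fell by 0.28 and Col3a1 of the stromal list by 0.40 on the log2 scale (adjusted p = 6.98e-07 and 1.47e-06). Of the 5 lymphoid markers only Nkg7 was analysed, at 0.241 ± 0.129 CPM in siHells and 0.480 ± 0.113 CPM in siControl (SD, n = 2 each), and none of the 5 erythroid markers was. These shifts run alongside every result below, and their part in it was not tested. In bulk RNA, fewer cells of a type and less RNA per cell cannot be told apart.

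Transcripts of the import machinery were lower after Hells knockdown. Of the 35 members, 25 fell, 2 rose and 8 did not pass the threshold of an adjusted p of 0.05 (edgeR quasi-likelihood test, Benjamini-Hochberg over 15651 genes). Over all genes tested 58.1% passed in either direction, 29.3% as lower and 28.8% as higher, so 71.4% of the members fell beside 29.3% of all genes. The median log2 fold change was -0.46 for the members and -0.0042 for all genes. The 34 protein-coding members together held 1340.1 and 1337 CPM in siHells and 1834 and 1845 CPM in siControl, 27.2% lower on average. The libraries of the groups did not overlap for 30 members that were lower and 3 that were higher, and over all genes 39.4% were lower and 39.1% higher without overlap. The falls were moderate in size. Only 6 members, Timm8a1, Chchd4, Timm10, Tomm40, Samm50 and Timm17a, passed a test against a 1.5-fold change, as did 7.00% of all genes in the lower direction.

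**Figure D1:**
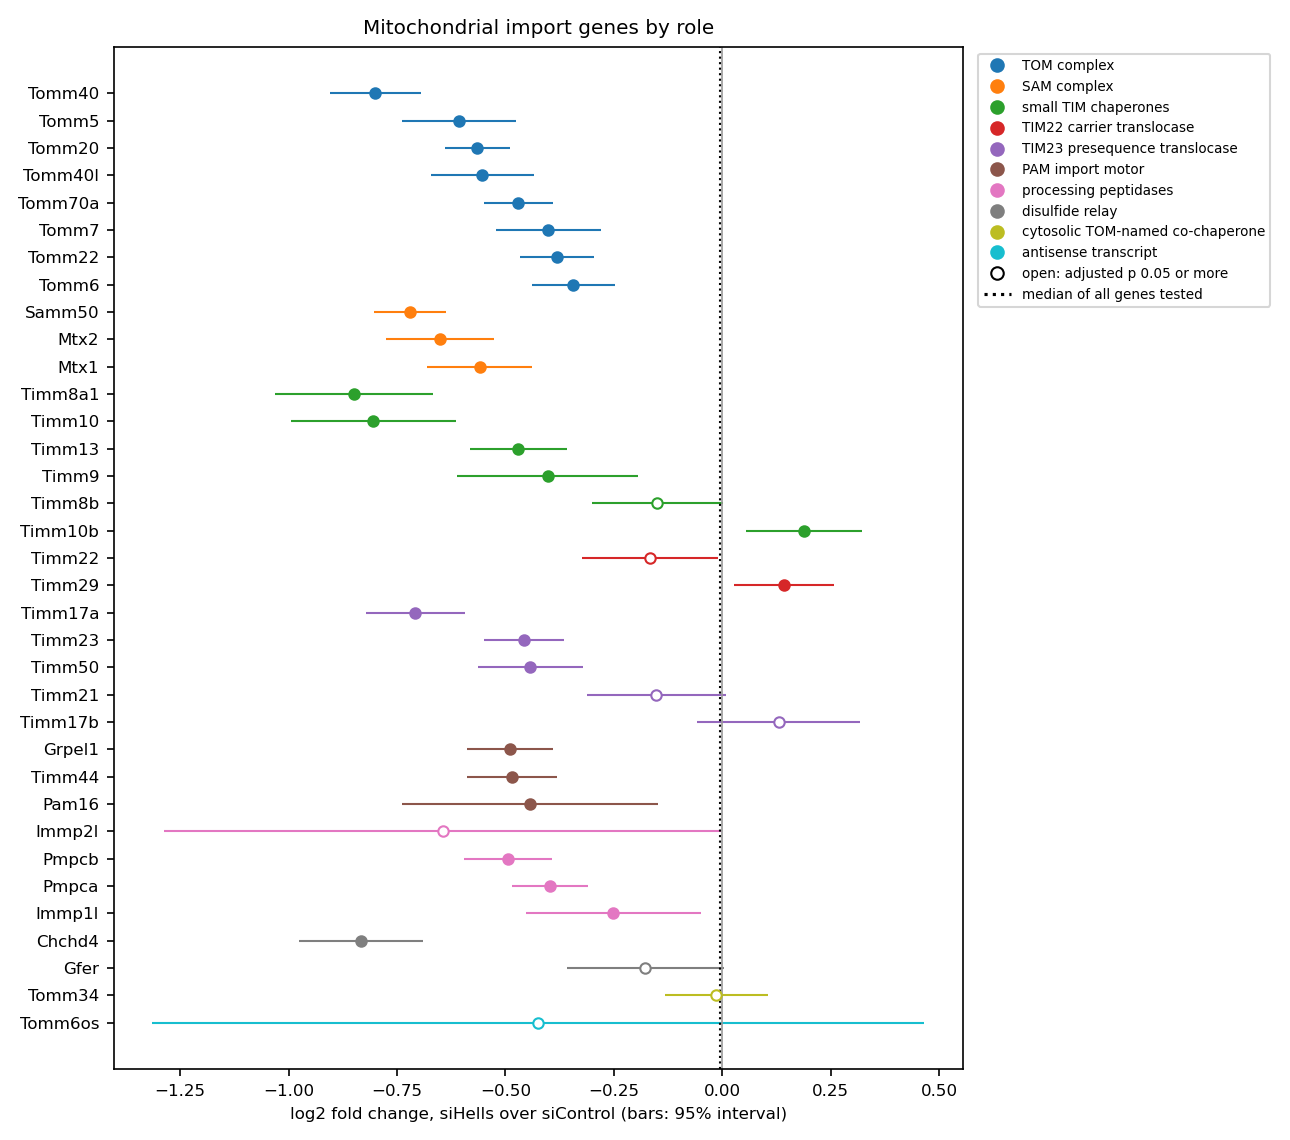
Log2 fold change of each of the 35 members, siHells over siControl, on the horizontal axis, with members down the page grouped by role; bars are 95% intervals of the edgeR fit, filled points have an adjusted p under 0.05 and the dotted line is the median of all genes tested. The TOM, SAM and PAM genes all lie left of 0, while Timm10b and Timm29 lie to its right.

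All 8 genes of the TOM complex, the entry gate of the outer membrane, fell. Tomm40, which encodes the barrel-shaped pore, was at 37.5 and 37.1 CPM in siHells against 65.9 and 63.8 CPM in siControl. It was 1.74-fold lower (log2 fold change -0.80, SE 0.049, adjusted p = 1.52e-09), the largest fall in the complex. Its paralog Tomm40l was at 29.3 and 29.2 CPM in siHells and 42.0 and 43.9 CPM in siControl, a log2 fold change of -0.55. In the annotation 64.3% of the exon length of Tomm40l is shared with Nr1i3 on the opposite strand, so its reads are uncertain. Among the receptors, Tomm20, which binds presequences, was at 123 and 127 CPM in siHells and 186 and 184 CPM in siControl (log2 fold change -0.56, adjusted p = 1.91e-09). Tomm70a, the receptor for carrier proteins, was at 131 and 138 CPM in siHells and 185 and 188 CPM in siControl (log2 fold change -0.47, adjusted p = 3.18e-08). For both receptors the siHells libraries lay far below the siControl libraries. Tomm22, the central receptor that organises the complex, fell less, with 88.3 and 89.4 CPM in siHells and 113 and 118 CPM in siControl (log2 fold change -0.38). The small subunits Tomm5, Tomm7 and Tomm6, which stabilise the complex, had log2 fold changes of -0.61, -0.40 and -0.34. With the trend over exon length removed, Tomm5, Tomm7 and Tomm6 were at -0.37, -0.20 and -0.14, still called as lower (adjusted p = 0.000107, 0.00713 and 0.0141). Reads of Tomm6 are uncertain, since the predicted gene Gm21981 covers 76.0% of its exon length on the same strand. Tomm6os covers 19.4% on the opposite strand, but had only 17 to 42 counts per library against 2991 to 3927 for Tomm6.

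The 95% interval of Tomm40 ran from -0.90 to -0.70 on the log2 scale and did not meet those of Tomm22 (-0.47 to -0.30), Tomm6 (-0.44 to -0.25) and Tomm7 (-0.52 to -0.28). The difference between these genes was not itself tested. The complex as a whole summed to 524 and 539 CPM in siHells and 749.8 and 752 CPM in siControl. Tomm34, a co-chaperone that shares the name but is a cytosolic protein, was at 42.4 and 39.5 CPM in siHells and 40.8 and 42.0 CPM in siControl. Its libraries overlapped, with a log2 fold change of -0.01 (95% interval -0.13 to 0.11, adjusted p = 0.849).

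The SAM complex, which inserts barrel proteins such as Tomm40 into the outer membrane, fell in all 3 genes. Samm50, its core subunit, was at 95.2 and 94.4 CPM in siHells against 152 and 160.2 CPM in siControl, 1.65-fold lower (log2 fold change -0.72, SE 0.039, adjusted p = 3.41e-10). The metaxins Mtx2 and Mtx1, which complete the complex on its cytosolic side, had log2 fold changes of -0.65 and -0.56. Mtx2 was at 33.6 and 33.7 CPM in siHells and 55.5 and 50.1 CPM in siControl, and Mtx1 at 27.3 and 26.7 CPM in siHells and 39.8 CPM in both siControl libraries. Mtx1 shares 21.2% of its exon length with the predicted gene Gm43737 and 8.9% with Thbs3, both on the opposite strand. The metaxin outside the naming rule, Mtx3, also fell, with a log2 fold change of -0.34 (adjusted p = 0.000351).

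The promoter window of Samm50 runs from 250 bases before to 50 bases after the RefSeq start site (chr15:84191990-84192289 of GRCm38.p6, plus strand). It is shown because Samm50 fell most among the members with a match to the YY1 motif. Samm50 also had the smallest p of all members. The capitals mark the match to the YY1 motif, which begins 10 bases past the start site.
Samm50: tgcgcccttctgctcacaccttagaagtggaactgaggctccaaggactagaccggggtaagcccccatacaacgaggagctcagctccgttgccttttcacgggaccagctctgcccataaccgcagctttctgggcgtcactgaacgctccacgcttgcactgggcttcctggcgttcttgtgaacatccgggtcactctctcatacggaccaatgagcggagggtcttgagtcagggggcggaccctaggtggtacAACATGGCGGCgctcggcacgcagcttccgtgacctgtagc

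The small TIM chaperones escort hydrophobic proteins across the space between the membranes, and here they split. Timm8a1, the mouse counterpart of the human deafness-dystonia gene, was at 9.80 and 9.43 CPM in siHells and 17.4 and 17.2 CPM in siControl. This was the largest called fall among the members, 1.80-fold (log2 fold change -0.85, SE 0.085, adjusted p = 4.82e-07). Timm10 was at 10.8 and 9.75 CPM in siHells and 18.6 and 17.2 CPM in siControl, 1.75-fold lower (log2 fold change -0.80, SE 0.089, adjusted p = 1.49e-06). In both genes every siHells library lay below every siControl library. Timm9 and Timm13, with which Timm10 and Timm8a1 form ring-shaped hexamers, fell by 0.40 and 0.47 on the log2 scale. With the trend over exon length removed, Timm8a1, Timm10 and Timm13 were at -0.69, -0.56 and -0.31. All were still called as lower (adjusted p = 4.59e-06, 6.98e-05 and 0.000130). Timm8a1 was then no longer the largest called fall, as Chchd4 was at -0.85.

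Timm8b, the paralog of Timm8a1, was at 21.3 and 20 CPM in siHells and 23.6 and 22.3 CPM in siControl, and did not pass the threshold (log2 fold change -0.15, 95% interval -0.30 to 0.00, adjusted p = 0.0830). Timm8b passed as lower with library totals (adjusted p = 0.0139) and upper-quartile scaling (adjusted p = 0.0410), and was at 0.15 with the trend over exon length removed. It shares 15.6% of its exon length with Nkapd1 on the opposite strand, which rose (log2 fold change 0.41), and without strand their reads cannot be told apart there. Timm10b, a small TIM protein that docks on the TIM22 complex, rose. It was at 30.7 and 28.8 CPM in siHells and 26.3 and 25.9 CPM in siControl, 1.14-fold higher (log2 fold change 0.19, SE 0.063, adjusted p = 0.0179). The rise of Timm10b did not pass without siHells replicate 1 (adjusted p = 0.114), siControl replicate 1 (adjusted p = 0.0602) or siControl replicate 2 (adjusted p = 0.0694), nor with library totals in place of TMM scaling (adjusted p = 0.130). It shares 10.5% of its exon length with the predicted protein-coding gene Gm45799 on the same strand, so its reads are uncertain, and 7.7% with Arfip2 on the opposite strand, itself at a log2 fold change of -0.04.

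The promoter window of Timm10b (chr7:105640195-105640494, plus strand) is shown as that of a member that went up. The capitals mark the ETS letters, CCGGAAG read on the opposite strand, the only match in it to the motifs searched.
Timm10b: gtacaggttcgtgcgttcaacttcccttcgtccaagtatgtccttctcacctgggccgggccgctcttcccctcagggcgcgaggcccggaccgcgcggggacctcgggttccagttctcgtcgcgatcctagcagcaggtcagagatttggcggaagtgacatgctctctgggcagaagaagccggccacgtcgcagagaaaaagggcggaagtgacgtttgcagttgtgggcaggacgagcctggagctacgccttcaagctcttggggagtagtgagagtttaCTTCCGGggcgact

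The TIM22 complex, which inserts carrier proteins into the inner membrane, had no gene that fell by the edgeR quasi-likelihood test, although Timm22 had an unadjusted p of 0.0386. Timm22, the channel-forming subunit, was at 19.6 and 18.2 CPM in siHells and 21.9 and 20.6 CPM in siControl (log2 fold change -0.17, 95% interval -0.32 to -0.01, adjusted p = 0.0641). Timm22 passed as lower with library totals (adjusted p = 0.0114), with upper-quartile scaling (adjusted p = 0.0324) and without siHells replicate 1 (adjusted p = 0.0358). Timm29, a subunit known from the human complex, was at 45.9 and 46.3 CPM in siHells and 40.3 and 43.3 CPM in siControl, 1.10-fold higher (log2 fold change 0.14, SE 0.054, adjusted p = 0.0339). The rise of Timm29 did not pass without siHells replicate 2 (adjusted p = 0.0577) or without siControl replicate 1 (adjusted p = 0.331). It also did not pass with library totals (adjusted p = 0.287), upper-quartile scaling (adjusted p = 0.0916), no filter on low counts (adjusted p = 0.0504) or the DESeq2 Wald test (adjusted p = 0.0814).

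In the TIM23 complex, the route of presequence proteins, 3 of 5 genes fell. Timm17a was at 35.4 and 33.4 CPM in siHells against 55.2 and 57.2 CPM in siControl, 1.63-fold lower (log2 fold change -0.71, SE 0.053, adjusted p = 1.80e-08). Timm17b, its X-linked paralog and alternative subunit, was at 14.0 and 12.9 CPM in siHells and 12.3 and 12.4 CPM in siControl (log2 fold change 0.13, 95% interval -0.06 to 0.32, adjusted p = 0.221). Timm23, the channel-forming subunit, was at 59.6 and 58.4 CPM in siHells and 81.1 and 80.9 CPM in siControl (log2 fold change -0.46, adjusted p = 2.62e-07), and Timm50, the receptor that hands presequences over from TOM, had a log2 fold change of -0.44. Timm21, known from yeast to contact TOM, was at 18.0 and 20 CPM in siHells and 21.2 and 21.0 CPM in siControl (log2 fold change -0.15, adjusted p = 0.0960), and passed as lower with library totals (adjusted p = 0.0183), upper-quartile scaling (adjusted p = 0.0483) and without siHells replicate 2 (adjusted p = 0.0264).

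Timm23 has near-identical copies in the mouse genome, so its reads may be split among them. The 5 copies found by sequence match, at 95% identity or more over at least 50% of the transcript, are the protein-coding Gm10273 and the processed pseudogenes Gm10171, Gm10233, Gm16209 and Gm7493. They summed to 18.2 and 17.4 CPM in siHells and 24.2 and 23.5 CPM in siControl. Timm23 with its copies summed to 77.8 and 75.8 CPM in siHells and 105 and 104 CPM in siControl, 26.7% lower, beside 27.1% for Timm23 alone in the fit.

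All 3 members of the PAM motor, which pulls the chain into the matrix, fell. Timm44, which tethers the motor to the channel, was at 49.8 and 46.9 CPM in siHells and 67.3 and 68.1 CPM in siControl (log2 fold change -0.49, adjusted p = 4.75e-07). Grpel1, which exchanges nucleotide on the motor chaperone, was at 49.3 and 50.7 CPM in siHells and 69.3 and 71.0 CPM in siControl (log2 fold change -0.49, adjusted p = 2.53e-07), and shares 11.6% of its exon length with Tada2b on the opposite strand, which rose by 0.19. Pam16, which regulates the J-protein of the motor, was less abundant, at 8.80 and 6.75 CPM in siHells and 11.6 and 9.53 CPM in siControl (log2 fold change -0.44, adjusted p = 0.0131). The fall of Pam16 did not pass without siHells replicate 2 (adjusted p = 0.0769) or siControl replicate 1 (adjusted p = 0.134), and the gene shares 18.7% of its exon length with Glis2 on the opposite strand, which rose (log2 fold change 0.39).

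The processing peptidases cut targeting sequences off after import. Pmpca and Pmpcb, the paired subunits of the matrix enzyme, were 1.32-fold and 1.41-fold lower (log2 fold changes -0.40 and -0.49, adjusted p = 7.11e-07 and 2.91e-07). Pmpca shares 20.4% of its exon length with Inpp5e on the opposite strand, itself at a log2 fold change of -0.04 with adjusted p = 0.658. Of the inner membrane peptidase genes, Immp1l fell by 0.25 on the log2 scale (adjusted p = 0.0326), but not without siHells replicate 2 (adjusted p = 0.182), without siControl replicate 2 (adjusted p = 0.213), with the replicate block (adjusted p = 0.0522) or with the DESeq2 Wald test (adjusted p = 0.0883). With the trend over exon length removed, its log2 fold change was -0.03 (adjusted p = 0.840). Its reads are uncertain, since the processed pseudogene Gm8121 is a near-identical copy of 52% of its transcript. Immp2l was scarce, with 42 and 59 counts in siHells and 98 and 57 counts in siControl, and did not pass (log2 fold change -0.64, 95% interval -1.29 to -0.0036, adjusted p = 0.0789). Immp2l passed as lower without siHells replicate 2 (log2 fold change -0.92, adjusted p = 0.0300) and without siControl replicate 2 (log2 fold change -0.92, adjusted p = 0.0280), and was at -0.29 without siControl replicate 1.

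The disulfide relay folds cysteine-rich proteins as they enter. Chchd4, the oxidoreductase that traps them, was at 16.7 and 17.6 CPM in siHells against 31.2 and 29.9 CPM in siControl, 1.78-fold lower (log2 fold change -0.83, SE 0.067, adjusted p = 4.03e-08). Gfer, the sulfhydryl oxidase that recharges Chchd4, was at 15.4 and 14.0 CPM in siHells and 17.2 and 15.9 CPM in siControl (log2 fold change -0.18, 95% interval -0.36 to 0.00, adjusted p = 0.0859). Gfer passed as lower with library totals (adjusted p = 0.0198), upper-quartile scaling (adjusted p = 0.0482) and without siHells replicate 1 (adjusted p = 0.0335). The intervals of the enzyme pair did not meet, with that of Chchd4 running from -0.98 to -0.69. The difference between Chchd4 and Gfer was not itself tested.

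The promoter window of Chchd4 (chr6:91473374-91473673, minus strand) is shown because Chchd4 had the second largest called fall. The capitals mark the match to the NRF1 motif, read on the opposite strand, the only match in the window to the motifs searched. The first marked base lies 196 bases before the start site.
Chchd4: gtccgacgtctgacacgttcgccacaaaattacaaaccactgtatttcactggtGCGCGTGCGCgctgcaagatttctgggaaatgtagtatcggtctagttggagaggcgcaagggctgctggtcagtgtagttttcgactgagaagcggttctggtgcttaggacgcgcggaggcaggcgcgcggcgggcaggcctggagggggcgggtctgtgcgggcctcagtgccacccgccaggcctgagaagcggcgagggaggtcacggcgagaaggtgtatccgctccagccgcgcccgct

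Tomm6os, the antisense row, had 17 and 42 counts in siHells and 36 and 41 counts in siControl and was not called (adjusted p = 0.403). Tomm6os passed as lower without siHells replicate 2 (log2 fold change -1.22, adjusted p = 0.0456) and was at 0.09 without siHells replicate 1. Its 2 siHells counts differ by more than the groups do. Reads of Tomm6os are uncertain, since it shares 41.5% of its exon length with Prickle4, 32.5% with Gm21981 and 7.4% with Tomm6, all on the opposite strand.

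**Figure D2:**
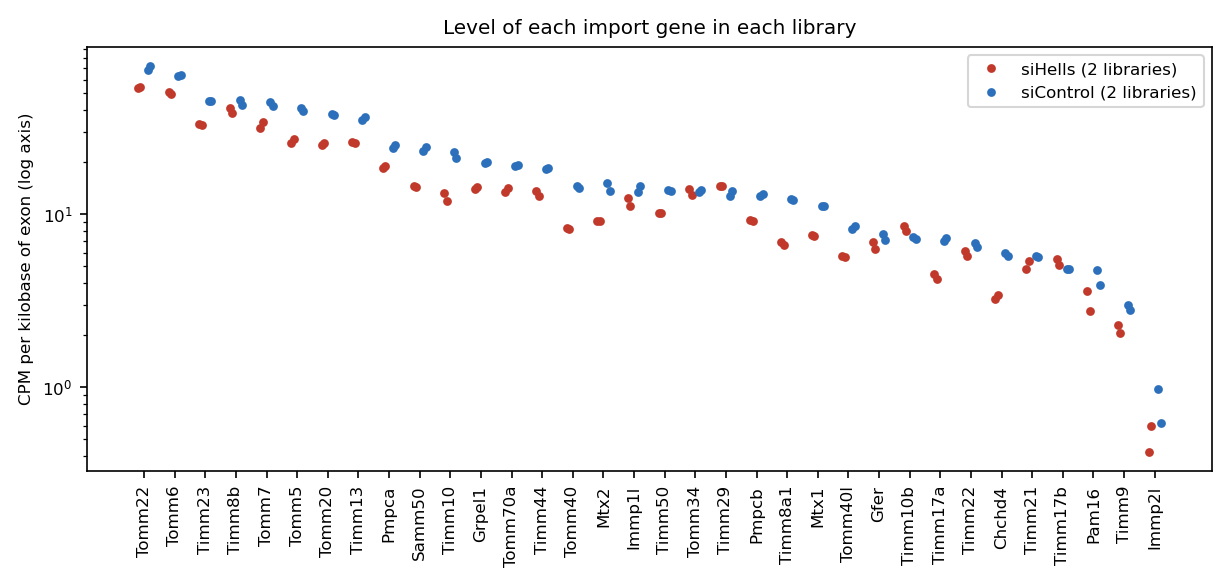
CPM per kilobase of annotated exon (log axis) of the 34 protein-coding members in each library, ordered by the siControl mean, with siHells points left and siControl points right of each gene. Tomm22 and Tomm6 were the most abundant and Immp2l the least, and the siHells points lie below the siControl points for most genes at every level.

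Per kilobase of annotated exon, the members spanned a wide range of levels. Tomm22 was the highest at 53.8 CPM per kilobase in siHells and 70.1 in siControl, followed by Tomm6 at 50 in siHells and 63.5 in siControl. In siControl, Timm23, Timm8b, Tomm7 and Tomm5 came next at 45.3, 44.2, 43.3 and 40.3 CPM per kilobase, with neighbours in that order close together. Timm9 was among the lowest at 2.18 in siHells and 2.88 in siControl, and Immp2l was last at 0.512 in siHells and 0.797 in siControl. Exon length here joins the exons of all annotated transcripts, 4282 bases for Timm9 and 815 for Timm10. It may exceed the transcripts present in these cells, so the order depends on the annotation. The trend over exon length used the same lengths. The level per kilobase did not order the fold changes, with a Spearman rho of -0.04 across the 34 protein-coding members, and exon length gave a rho of -0.28. These are descriptions across genes of the same 4 libraries.

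Ratios of counts within a library do not depend on the scaling between libraries, and they were compared for 9 pairs of paralogs or partners. The Timm17a to Timm17b ratio was 2.52 and 2.58 in siHells and 4.50 and 4.62 in siControl, 1.79-fold lower. The Timm8a1 to Timm8b ratio was 0.459 and 0.472 in siHells and 0.738 and 0.775 in siControl, 1.62-fold lower. In both pairs the siHells libraries lay below the siControl libraries, that is, with relatively more counts of Timm17b and Timm8b. Of the hexamer partners, the Timm9 to Timm10 ratio was 0.909 and 0.908 in siHells and 0.683 and 0.693 in siControl. The Timm8a1 to Timm13 ratio was 0.275 and 0.265 in siHells and 0.360 and 0.343 in siControl. A ratio does not remove a trend over exon length. With that trend removed, the log2 fold changes were -0.41 for Timm9 and -0.56 for Timm10, nearer together than -0.40 and -0.80 without its removal. Those of Timm17a and Timm17b were then -0.77 and 0.18, and those of Timm8a1 and Timm8b -0.69 and 0.15.

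The Tomm40 to Tomm40l ratio was 1.28 and 1.27 in siHells and 1.57 and 1.45 in siControl, and the Grpel1 to Grpel2 ratio was 2.29 and 2.18 in siHells and 2.66 and 2.79 in siControl. The peptidase subunits kept nearer to each other, with a Pmpca to Pmpcb ratio of 1.67 and 1.73 in siHells and 1.59 in both siControl libraries. The groups overlapped for Mtx1 to Mtx2, at 0.811 and 0.792 in siHells and 0.716 and 0.793 in siControl, and for Immp1l to Immp2l, at 15.2 and 9.66 in siHells and 7.19 and 12.2 in siControl. The exact two-sided permutation test of 2 against 2 libraries cannot go below p = 0.333, the value it gave for the 7 pairs that did not overlap, so none of the 9 pairs could pass.

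**Figure D3:**
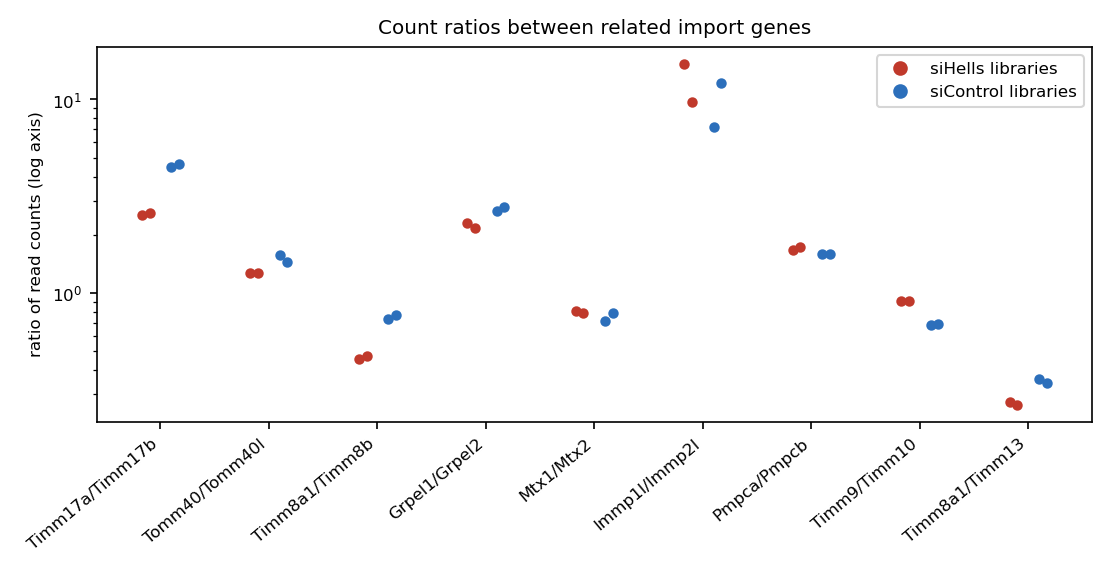
Ratio of read counts (log axis) between related import genes in each library, with siHells libraries left and siControl libraries right in each pair. The 2 siHells points lie below the 2 siControl points for Timm17a/Timm17b and Timm8a1/Timm8b and above them for Timm9/Timm10.

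Other genes of the import pathway were mostly lower too. Of 21 genes listed as partners outside the naming rule, 16 fell and 0 rose. The share that fell was 76.2%, beside 29.3% of all genes, and the median log2 fold change was -0.46, beside -0.0042 for all genes. Hspa9, the matrix chaperone that drives the PAM motor, was at 286 and 290.3 CPM in siHells and 456 and 452 CPM in siControl (log2 fold change -0.65, adjusted p = 3.27e-11). Hspd1 and Hspe1, the chaperonin that folds proteins after import, fell by 0.84 and 0.80 on the log2 scale. Immt, Chchd3 and Apoo, which belong to the cristae-organising MICOS complex that contacts SAM, fell by 0.62, 0.71 and 1.14. Grpel2, the paralog of Grpel1, fell by 0.20 (adjusted p = 0.0184). The one value above 0 was that of the protease gene Yme1l1, at 0.06 (unadjusted p = 0.156, adjusted p = 0.215). The count of partners that rose was 0 in edgeR, the DESeq2 Wald test and limma voom, and 0 at an unadjusted p of 0.05.

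Genes for proteins that the disulfide relay imports were also lower. Of 19 listed clients 16 (84.2%) fell, beside 29.3% of all genes, and 1, Triap1, rose. The median log2 fold change of the clients was -0.46. Chchd10 was at 11.3 and 9.92 CPM in siHells and 42.3 and 37.9 CPM in siControl, 3.78-fold lower (log2 fold change -1.92, adjusted p = 1.83e-11). Cox6b1, a subunit of cytochrome oxidase, fell by 0.71 on the log2 scale, and Ndufs5 and Ndufb10, of complex I, by 0.83 and 0.81. Uqcrh and Chchd2 fell by 0.47 and 0.46. Triap1, which works in lipid transfer between the membranes, rose by 0.22 on the log2 scale (adjusted p = 0.00419). Beside these, 91.5% of 82 mitochondrial ribosomal protein genes fell, with a median of -0.45, and 97.6% of 41 Nduf genes, with a median of -0.61. Both shares are above the 71.4% of the members, without removal of the trend over exon length. With that trend removed, 24 members, 17 partners and 14 clients were called as lower. Neither family was counted with it removed. The difference of the import genes from either family was not tested.

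**Figure D4:**
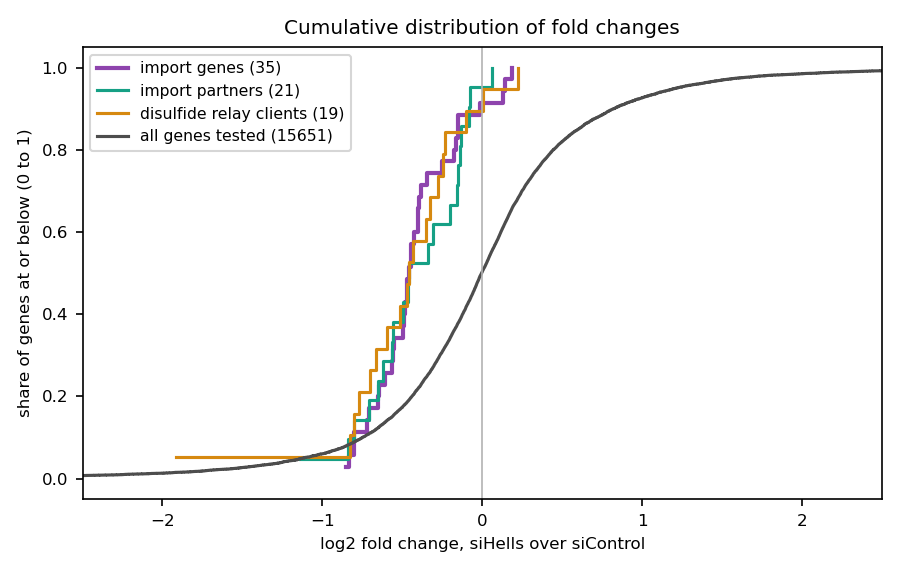
Share of genes (0 to 1) at or below each log2 fold change, siHells over siControl, for the 35 import genes, the 21 partners, the 19 disulfide relay clients and all 15651 genes tested, with the axis cut at -2.5 and 2.5. The 3 mitochondrial curves lie left of the curve of all genes around the centre, with medians near -0.46 against -0.0042.

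Promoter windows from RefSeq (GRCm38.p6) matched 31 of the 34 protein-coding members. The YY1 motif (AA, any base, ATGGC, then GGC), searched like the others on both strands, was in 5 of these genes (16.1%), against 2.6% of 11259 tested genes with a window and 1.0% of all windows. The ETS letters CCGGAAG were in 13 genes (41.9%) against 19.0% of tested genes and 8.9% of all windows, and the NRF1 motif (GCGCA, any base, then GCGC) in 4 (12.9%) against 10.8% and 4.6%. The E-box CACGTG was in 4 genes (12.9%), against 11.4% and 7.2%, and the ERR letters TCAAGGTCA in 1, Timm8b (3.2%), against 0.3% and 0.4%. All 5 members with YY1 letters fell, with a median log2 fold change of -0.49, as did 18 of those without them, with a median of -0.46. All 4 members with the E-box fell as well, with a median of -0.68, as did 19 without it, with a median of -0.46. Of 4 with the NRF1 motif 3 fell, with a median of -0.50, as did 20 without it, with a median of -0.47. The median was -0.46 for members with ETS letters and -0.48 for those without. Differences between members with and without a motif were not tested. Over all tested genes, the share that fell was 36.2% with the YY1 motif, 34.8% with NRF1, 34.5% with the E-box, 33.7% with ETS and 24.3% with ERR. Of all genes tested, with or without a window, 29.3% fell. The 9 of 13 members with ETS letters that fell leave Timm10b, Timm29, Timm8b and Tomm34, of which Timm10b and Timm29 rose. A match describes these letters and not a bound site.

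The 5 matches to the YY1 letters are shown with 8 bases on each side, in the direction of the gene, because in Mtx1, Samm50, Timm44 and Timm50 they begin 10 to 16 bases past the start site, while in Immp1l they are read on the opposite strand 157 bases before it. The capitals mark the motif.
Samm50, chr15:84192241-84192267, plus strand: ggtggtacAACATGGCGGCgctcggca
Mtx1, chr3:89213878-89213904, minus strand: gagcgtacAAGATGGCGGCgcccatgg
Timm44, chr8:4275872-4275898, minus strand: gctcttccAACATGGCGGCggcagctc
Timm50, chr7:28312017-28312043, minus strand: gtcagcgcAAGATGGCGGCctcggcgg
Immp1l, chr2:105904473-105904499, plus strand: tgtctgccGCCGCCATCTTgaagctcc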

How the data were processed

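The table the authors deposited holds raw gene counts, unnormalised, with 1 column for each of the 4 libraries, matched to its label by name. Per the submitters' processing notes, the tools were HISAT2 2.1.0, StringTie 2.1.3b, Trimmomatic 0.38, edgeR and FastQC, and the genome was mm10. Neither the annotation nor the role of each tool is stated there. The labels' protocols name both a TruSeq Stranded mRNA and a SMARTer mRNA-Seq kit. Strand is thus unknown, and overlapping genes are uncertain. Of the overlapping genes named above, Nr1i3, Gm21981, Gm43737 and Gm45799 were not among the counted genes, so their own levels are not known. The lowest count was 1 and 0 values were 0, so genes with 0 reads in any library are not analysed here, and neither are Timm8a2 and Tomm20l.

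From the counts, genes were kept by filterByExpr (minimum count 10, minimum total 15), which left 15651 and removed 1543. Libraries were scaled by TMM and tested with the edgeR 4.0.16 quasi-likelihood test (R 4.3.3, robust, group only, 2 residual degrees of freedom), adjusted by Benjamini-Hochberg over all genes with a threshold of 0.05. Levels are TMM-scaled CPM, where 10 counts stand for 0.180 to 0.205 CPM before that scaling, and fold changes are siHells over siControl. The SE is the log2 fold change divided by the root of its F value, and intervals are at 95%. Exon lengths, overlaps and positions are from GENCODE M21 (GRCm38), which matched all 35 members. The method was tested on simulated counts drawn from the negative binomial model that edgeR assumes, with a common dispersion estimated from these data. That test cannot show the error rate where the spread between libraries departs from this model.

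Alternatives were other scalings, filters, DESeq2 1.42.0, limma 3.58.1 voom, a replicate block, leaving out single libraries, stricter thresholds and, added after the data were seen, removal of length and GC trends (lowess span 0.3) and the Timm9/Timm10 and Timm8a1/Timm13 pairs. Every member is named by rule, with Hells, Grpel2, Mtx3 and up to 6 genes of the smallest p in each of the partner and client lists. Triap1, Yme1l1, Cd68, Col3a1 and the overlapping genes and copies were named after their values were seen. Members and lists were chosen with earlier results of these data known.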

Additional observations from a re-analysis of the deposited data

How the results depend on the processing

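The count of 25 members lower lay between 24 and 29 under every alternative run at a threshold of 0.05 against no change, and was 23 at an adjusted p of 0.01. Against a 1.5-fold change, 6 members were lower and 0 higher, 5 partners and 5 clients were lower and 0 clients higher, and over all genes 1095 were lower and 1262 higher. With all libraries kept and a threshold of 0.05 against no change, partners lower ranged from 14 (DESeq2 Wald test) to 19 (library totals). Clients lower ranged from 14 (exon length trend removed) to 16. At an adjusted p of 0.01, 13 partners and 14 clients were lower. The 2 members higher, Timm10b and Timm29, were the least stable call: the number was 0 with library totals, 1 with upper-quartile scaling, 1 with no filter, 1 with the DESeq2 Wald test, 0 at an adjusted p of 0.01, and 0 to 1 when each library was left out. The number of partners higher was 0 to 1 when each library was left out. The median log2 fold change of the members was -0.53 with library totals, -0.49 with upper-quartile scaling, -0.47 with the replicate block and -0.40 with the exon length trend removed, and the cause was not tested. Library totals moved the median of all genes to -0.08 and upper-quartile scaling to -0.04, from -0.0042. With the replicate block, Timm23 stayed at -0.46 and Tomm6os moved from -0.42 to -0.50.

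Log2 fold changes not called in the fit to all libraries changed sign. Leaving out each library gave -1.22 (adjusted p = 0.0456, lower) to 0.092 for Tomm6os and -0.064 to 0.040 for Tomm34. Removing the exon length trend gave 0.011 for Tomm34 and 0.15 for Timm8b (adjusted p = 0.0758). The difference in the log2 ratio of Immp1l to Immp2l was -0.0071 to 0.75 when each library was left out. Replicate numbers are shared between groups, but same-numbered libraries deviated together with r = 0.05 over all genes and r = 0.17 over the members, and with 2 pairs and no label that ties the numbers they were not taken as pairs. With the replicate block 24 members were lower, the lost one being Immp1l. Leaving out a library leaves a lone sample in its group, assumed to vary like the other group. Depth limits Immp2l and Tomm6os, at under 100 counts per library.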
